A study of Rattus norvegicus with 8 samples.

Results

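The genes described here are 6 enzymes that act between acetoacetate or acetyl-CoA and squalene, the enzyme that oxidises squalene, and the paralogous sterol sensors *Insig1* and *Insig2*. They were chosen by name, as every row of the expression table annotated with that single gene symbol, and each of the 9 genes (*Aacs*, *Acat2*, *Pmvk*, *Mvd*, *Idi1*, *Fdft1*, *Sqle*, *Insig1* and *Insig2*) had exactly 1 row among the 8793 transcript clusters of the table. A transcript cluster is a set of array probes that in most cases covers 1 gene, and its value is a log2 intensity. Whole spinal cords of 8 female, virgin Lewis rats had been hybridised to Affymetrix rat exon arrays, 1 rat to an array, and the question was which transcripts differ in experimental autoimmune encephalomyelitis (EAE), a model of inflammatory disease of the central nervous system. The 4 MBP-EAE rats (numbers 217, 218, 219 and 241) had received 50 µg of myelin basic protein under the skin at the tail base, in incomplete Freund's adjuvant with 4.0 mg/ml of *M. butyricum*, and their cords were taken on day 13, near the peak of disease or just after it. The 4 healthy control rats (numbers 193 to 196) were littermates of the same age, given by the labels as 16 weeks, and were killed at the same time. They were untreated, so that the antigen and the adjuvant cannot be told apart in this comparison. The labels name guinea pig brain as the source of the protein and the methods a recombinant protein, and the methods also give a younger age than the labels.

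Cholesterol is made from acetyl-CoA through mevalonate, isoprenoid diphosphates, squalene and lanosterol. When sterols are low in the membrane of the endoplasmic reticulum, SCAP escorts the SREBP transcription factors to the Golgi, where they are cut and released to switch on the genes of this pathway. Insig proteins bind SCAP when sterols are plentiful and hold it back, and *INSIG1* is itself an SREBP target in mammalian cells. In the central nervous system cholesterol is largely made locally, with oligodendrocytes as heavy producers because of their demand for myelin membrane.

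In MBP-EAE 7 of the 9 genes fell, 1 rose and 1 did not pass the test. The largest falls were those of *Idi1*, the isomerase of the isoprenoid building blocks, to 30.4% of the healthy level, of *Insig1* to 39.3%, of *Sqle*, squalene epoxidase, to 44.3%, and of *Fdft1*, squalene synthase, to 52.7%. *Pmvk*, *Mvd* and *Aacs* fell less, to between 70.7% and 76.4%. *Insig2* went the other way and rose to 144%. The test was limma with Benjamini-Hochberg adjustment over all 8793 clusters and an adjusted p threshold of 0.05, which called 25.9% of all clusters, 14.6% lower and 11.3% higher. All 9 genes had an unadjusted p under the same 0.05, against 37.2% of all clusters. At least a 2-fold fall was called for 3 members, and for 0.864% of all clusters. The median log2 fold change was -0.50 over the 9 members and -0.10 over all clusters.

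**Figure D1:**
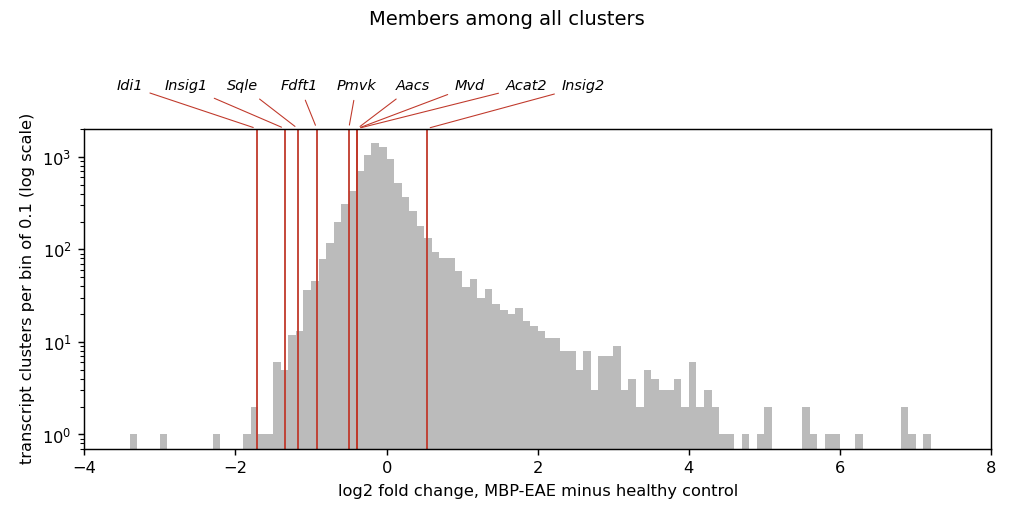
The grey histogram gives the number of transcript clusters (log scale) in each bin of log2 fold change, MBP-EAE minus healthy control, over 8793 clusters. The red lines mark the 9 members; 5 clusters fell further than *Idi1* and 819 rose further than *Insig2*.

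The whole cord was studied, so that fewer cells of a type and less RNA per cell cannot be told apart. Markers of several cell types were read from the same arrays. Of 15 oligodendrocyte markers measured, 9 fell and 0 rose (median log2 fold change -0.60), and their summed linear intensity was 15345 to 19462 in healthy rats and 9748 to 12226 in MBP-EAE rats. All 6 monocyte and macrophage markers rose, with a summed intensity of 276.5 to 416 in healthy and of 5967 to 7379 in MBP-EAE rats, and 6 of 7 T cell markers rose. Of 10 neuron markers 5 fell (median log2 fold change -0.42), *Nefh*, *Nefl*, *Gap43* and *Map2* the most. Of 8 astrocyte markers 3 rose (*Gfap*, *Slc1a3* and *Gja1*) and 0 were called lower, while 4 had a negative log2 fold change (median -0.02). *Rgs5* fell as 1 of 4 endothelial and pericyte markers. No marker had an intensity of 0, but no detection call was made, and a value above 0 does not show that a marker was expressed. The part of these shifts in the results below was not tested. Healthy rat 195 stood apart in the spread of its values, with an interquartile range over all clusters of 2.23 log2 units against 2.61 to 2.93 in the other 7 arrays, and calls of pathway genes that change without it are given both ways.

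Sequences around the annotated start are shown for the member that fell most and for both Insig genes, which moved in opposite directions. RefSeq windows of the GRCr8 build, running from 250 bases before to 50 after the annotated start, were given for 6 of the 9 members (*Aacs*, *Acat2*, *Mvd*, *Idi1*, *Insig1* and *Insig2*). All 3 windows lie on the minus strand, at chr17:66547475-66547774 for *Idi1*, chr4:8057720-8058019 for *Insig1* and chr13:35040049-35040348 for *Insig2*. They are printed from 5′ to 3′ in the direction of transcription, and the capitals mark the NF-Y motif CCAAT (or ATTGG, its reverse complement) and the Sp1 motif GGGCGG (or CCGCCC).
Idi1: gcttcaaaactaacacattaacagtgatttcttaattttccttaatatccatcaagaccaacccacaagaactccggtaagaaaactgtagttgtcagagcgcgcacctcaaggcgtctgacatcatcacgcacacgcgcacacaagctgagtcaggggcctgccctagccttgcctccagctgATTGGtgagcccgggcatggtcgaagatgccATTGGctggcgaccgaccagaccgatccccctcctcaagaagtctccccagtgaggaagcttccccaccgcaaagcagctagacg
Insig1: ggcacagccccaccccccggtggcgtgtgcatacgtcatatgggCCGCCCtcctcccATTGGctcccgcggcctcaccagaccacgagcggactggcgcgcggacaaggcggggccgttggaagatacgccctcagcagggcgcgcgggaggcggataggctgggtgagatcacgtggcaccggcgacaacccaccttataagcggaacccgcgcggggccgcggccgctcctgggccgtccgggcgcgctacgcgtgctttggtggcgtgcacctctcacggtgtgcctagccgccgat
Insig2: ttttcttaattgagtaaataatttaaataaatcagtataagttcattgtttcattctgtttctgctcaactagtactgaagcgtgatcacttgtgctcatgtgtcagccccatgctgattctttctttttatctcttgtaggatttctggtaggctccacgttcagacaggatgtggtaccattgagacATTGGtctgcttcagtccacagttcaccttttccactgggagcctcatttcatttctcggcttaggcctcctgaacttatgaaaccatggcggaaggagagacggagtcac
NF-Y and Sp1 are general factors that work beside SREBP at many sterol genes. On either strand CCAAT was found in the windows of 4 of the 6 members (2 matches each in *Mvd* and *Idi1*, 1 each in *Insig1* and *Insig2*), against 37.7% of all 27457 windows. GGGCGG was found in 3 of the 6 (2 matches each in *Acat2* and *Mvd*, 1 in *Insig1*), against 34.9% of all windows. The motifs did not overlap each other. The sterol regulatory element consensus TCACNCCAC was in 0 of the 6 windows and in 1.13% of all windows; this says only that these letters are not in these 300 bases. The GC content was 71.3% for *Insig1*, 53.7% for *Idi1* and 42.0% for *Insig2*, beside a median of 52.3% over all windows. Near its end the *Insig2* window holds atggcggaaggagagacggagtca, which reads as a start codon followed by an open frame. This window may therefore not be the promoter of *Insig2*, and which start the spinal cord uses was not tested.

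*Aacs* encodes acetoacetyl-CoA synthetase, which activates the ketone body acetoacetate in the cytosol for lipid synthesis. Its log2 intensity was 5.00, 5.05, 4.85 and 4.96 in healthy rats 193, 194, 195 and 196 and 4.44, 4.86, 4.55 and 4.44 in MBP-EAE rats 217, 218, 219 and 241. Rats 217, 219 and 241 were below every healthy rat, while rat 218 stood just above healthy rat 195, so that the groups overlapped. The mean fell from 4.96 ± 0.08 to 4.57 ± 0.20 (SD, n = 4), a log2 fold change of -0.39 (SE 0.12, limma adjusted p = 0.0324). The exact two-sided permutation test over the 8 rats gave p = 0.0571, where 0.0286 is the smallest p that 4 against 4 can give. The call was lost with an adjusted p of 0.0550 without rat 193, 0.0912 without 194, 0.0735 without 196, 0.0994 without 217, 0.0717 without 219 and 0.0964 without 241, while it was 0.00938 without rat 218. *Aacs* and *Mvd* were dim, each below the median cluster on 5 of the 8 arrays.

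*Acat2*, here the cytosolic thiolase that joins acetyl-CoA units into acetoacetyl-CoA, was the member that did not pass. Its values were 6.57, 7.10, 6.76 and 7.03 in the healthy rats and 6.15, 6.80, 6.47 and 6.49 in the MBP-EAE rats, in the same order of rats. MBP-EAE rat 218 lay above healthy rats 193 and 195, and the groups overlapped. The log2 fold change of -0.39 was as large as that of *Aacs*, with a wider error (SE 0.16, 95% interval -0.75 to -0.03, adjusted p = 0.108), and the exact permutation p was 0.0857. RefSeq lists like-named copies of *Acat2* (*Acat2l1* and the pseudogenes *Acat2-ps1* and *Acat2-ps2*), and whether probes are shared with them was not tested.

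*Pmvk* and *Mvd* catalyse the last steps to isopentenyl diphosphate, phosphorylating phosphomevalonate and then decarboxylating the diphosphate. *Pmvk* was 5.66, 6.07, 6.11 and 6.21 in the healthy and 5.56, 5.66, 5.44 and 5.39 in the MBP-EAE rats. All MBP-EAE rats were below all healthy rats, but the gap between healthy rat 193 and MBP-EAE rat 218 was only 0.0040. It fell by 0.50 on the log2 scale (SE 0.13, adjusted p = 0.0191), or 1.41-fold (95% interval 1.15 to 1.73). The call was lost without rat 194 (adjusted p = 0.0538), 196 (0.0601), 219 (0.0504) or 241 (0.0583).

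*Mvd* was 4.81, 5.00, 5.12 and 5.14 in the healthy and 4.66, 4.63, 4.69 and 4.54 in the MBP-EAE rats. The MBP-EAE rats lay close together and below the lowest healthy rat, 193, with a gap of 0.13. The fall of 1.31-fold (95% interval 1.12 to 1.53, log2 fold change -0.39, SE 0.10) had an adjusted p of 0.0184. It was no longer called without rat 196 (adjusted p = 0.0592) or 241 (0.0585).

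*Idi1* interconverts isopentenyl diphosphate and dimethylallyl diphosphate, the building blocks of all isoprenoids, and changed most. Its values were 7.51, 7.81, 7.86 and 8.11 in the healthy and 6.07, 6.47, 6.003 and 5.86 in the MBP-EAE rats. Every MBP-EAE rat was at least 1.03 log2 units below the lowest healthy rat, and the spread within each group was about the same. The mean fell from 7.82 ± 0.25 to 6.10 ± 0.26 (SD, n = 4), which is 3.29-fold (95% interval 2.56 to 4.23, log2 fold change -1.72, SE 0.16, adjusted p = 3.82e-05). Among the 8793 clusters, 5 had a lower log2 fold change, and 1 of these was named for a single gene, the haemoglobin chain *Hbb-b1* (-3.30; it was looked up after the values were seen). RefSeq lists *Idi2*, *Idi2l2*, *Idi2l3*, *Idi2-ps1* and *Idi1-ps1* beside it, and sharing of probes with these copies was not tested.

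*Fdft1* condenses farnesyl diphosphate into squalene, the step that commits the pathway to sterols. It was 10.52, 10.41, 9.50 and 10.10 in the healthy and 9.17, 9.21, 9.17 and 9.29 in the MBP-EAE rats. The MBP-EAE rats were nearly equal, within a range of 0.12, whereas the healthy rats spanned 1.03 with rat 195 the lowest, and the groups did not overlap. It fell 1.90-fold (95% interval 1.40 to 2.57, log2 fold change -0.92, SE 0.20, adjusted p = 0.00664). Without rat 195 the log2 fold change was -1.14.

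*Sqle* adds oxygen to squalene and is a rate-limiting step after mevalonate. Its values were 9.31, 9.57, 8.79 and 9.31 in the healthy and 7.91, 8.26, 8.03 and 8.07 in the MBP-EAE rats. Healthy rat 195 was again the lowest of its group, and yet stood 0.52 above MBP-EAE rat 218. The fall was 2.26-fold (95% interval 1.76 to 2.89, log2 fold change -1.17, SE 0.16, adjusted p = 0.000478), and without rat 195 the log2 fold change was -1.33. The neighbouring steps of *Fdft1* and *Sqle* were also compared within each rat: the change of *Sqle* minus *Fdft1* was -0.25 log2 units, with overlapping groups (exact permutation p = 0.0857, the same after adjustment over the 2 pairs compared).

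**Figure D2:**
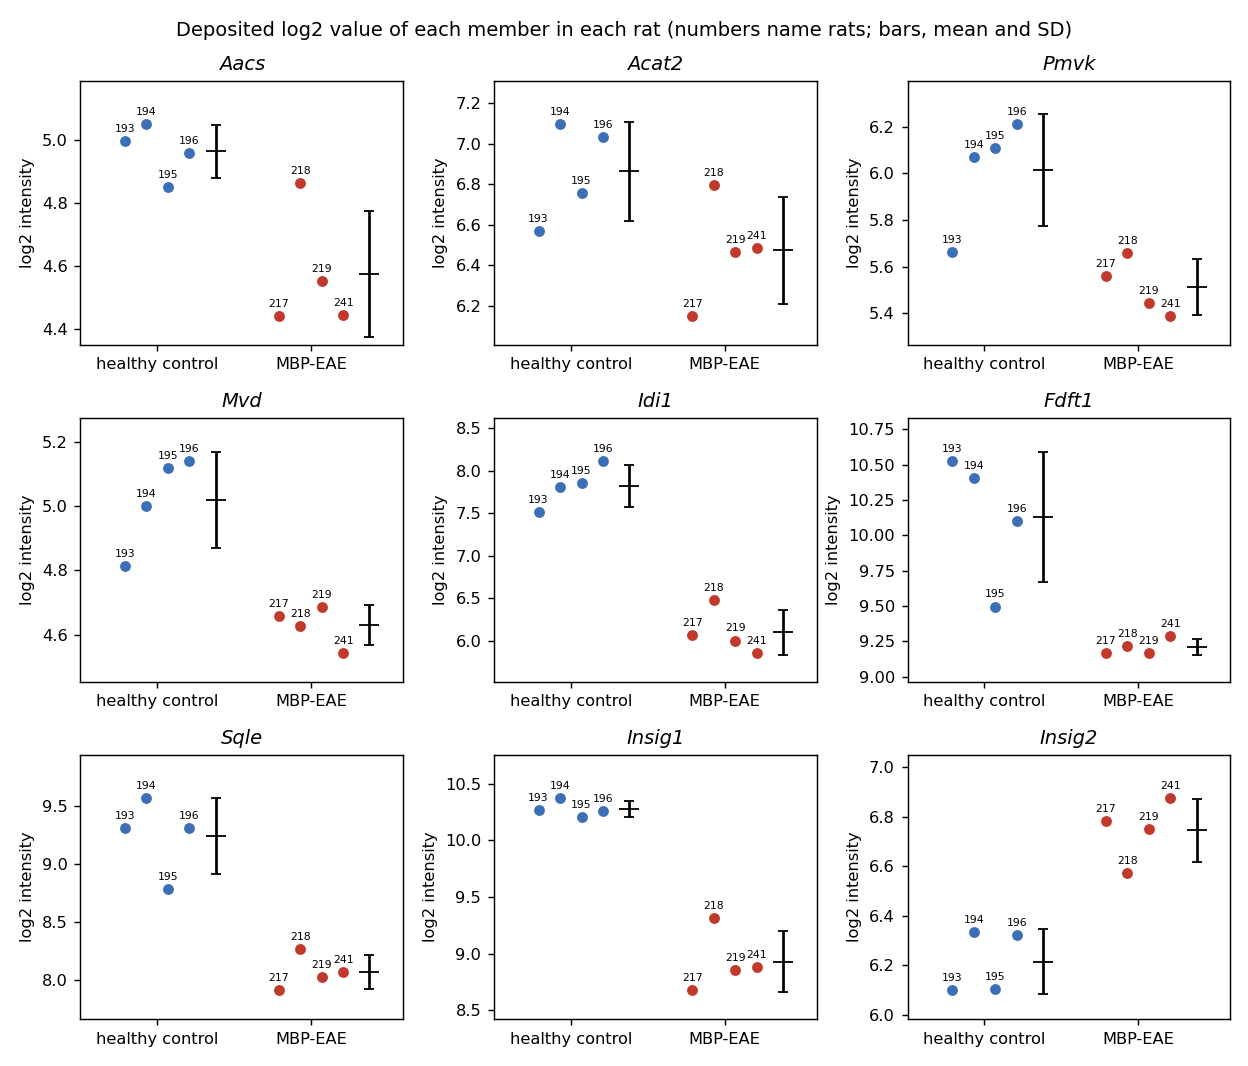
Each panel gives the deposited log2 intensity of 1 member in the 4 healthy control rats (blue) and the 4 MBP-EAE rats (red); numbers name rats and black bars give the mean and SD. The groups overlap for *Aacs* and *Acat2*, MBP-EAE lies lower for *Pmvk*, *Mvd*, *Idi1*, *Fdft1*, *Sqle* and *Insig1*, and *Insig2* lies higher.

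*Insig1* and *Insig2* encode related membrane proteins of the endoplasmic reticulum that retain the SCAP and SREBP complex. *Insig1* was 10.27, 10.37, 10.21 and 10.26 in the healthy and 8.68, 9.31, 8.85 and 8.88 in the MBP-EAE rats. The healthy rats were nearly equal, within 0.16, the MBP-EAE rats spanned 0.64 with rat 218 the highest, and a gap of 0.89 parted the groups. The fall was 2.54-fold (95% interval 2.07 to 3.13, log2 fold change -1.35, SE 0.13, adjusted p = 5.75e-05), and 16 clusters had a lower log2 fold change.

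*Insig2* was 6.10, 6.33, 6.10 and 6.32 in the healthy and 6.78, 6.57, 6.75 and 6.87 in the MBP-EAE rats. All MBP-EAE rats were above all healthy rats, with rat 218 the lowest of them. It rose 1.44-fold (95% interval 1.23 to 1.70, log2 fold change 0.53, SE 0.11, adjusted p = 0.00478), and 819 clusters had a higher log2 fold change. When arrays were instead shifted by the median deviation of 8 reference genes, the median of all clusters moved to -0.45. The rise of *Insig2* became 0.18 (limma adjusted p = 0.190), which was 0.63 above the median of all clusters.

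Because the probes of different clusters are not comparable in level, only the change of the within-rat difference of both Insig genes was read. *Insig2* minus *Insig1* was -4.17, -4.04, -4.10 and -3.94 in the healthy and -1.89, -2.74, -2.10 and -2.01 in the MBP-EAE rats. The groups did not overlap, and rat 218 lay nearest to the healthy rats. The difference changed by 1.88 log2 units (exact two-sided permutation p = 0.0286, the smallest possible; 0.0571 after adjustment over the 2 pairs).

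**Figure D3:**
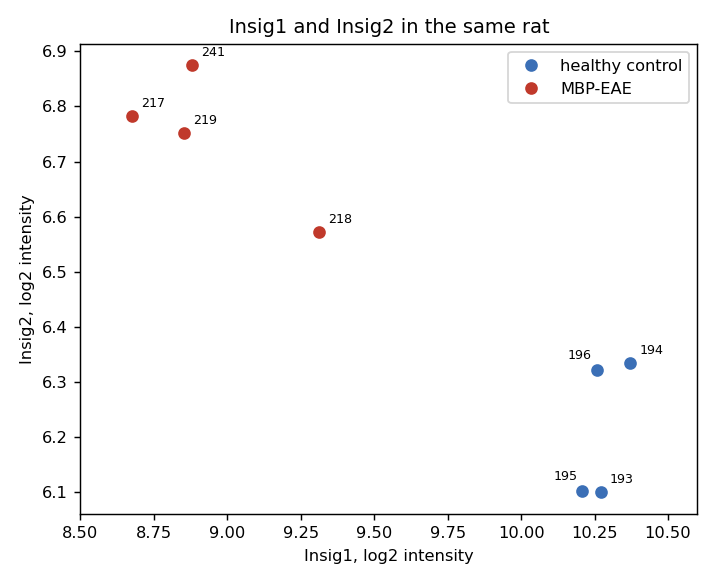
Log2 intensity of *Insig1* (horizontal) and *Insig2* (vertical) in each of the 8 rats. The healthy control rats (blue) lie at 10.21 to 10.37 for *Insig1* and 6.10 to 6.33 for *Insig2*, and the MBP-EAE rats (red) at 8.68 to 9.31 and 6.57 to 6.87.

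Across the members, 6 had MBP-EAE rats all below and 1 all above the healthy rats, so that 7 of 9 had groups without overlap. Over all clusters 29.3% had none, 17.3% with MBP-EAE below and 12.0% above. Rat 218 was the highest MBP-EAE rat for 6 of the 8 genes with a negative change (*Aacs*, *Acat2*, *Pmvk*, *Idi1*, *Sqle* and *Insig1*), and the lowest for *Insig2*. Among the 1280 clusters called lower, it was the highest MBP-EAE rat in 17.9% and the lowest in 45.5%. Against the healthy mean, its *Idi1* was -1.35 where rats 217, 219 and 241 had -1.75, -1.82 and -1.96, and its *Insig1* was -0.96 where they had -1.60, -1.43 and -1.40. Rat 217 was the lowest for 5 of the 8 genes and rat 241 for 3. Among the healthy rats, 193 and 195 were each the lowest for 4 of the 8.

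**Figure D4:**
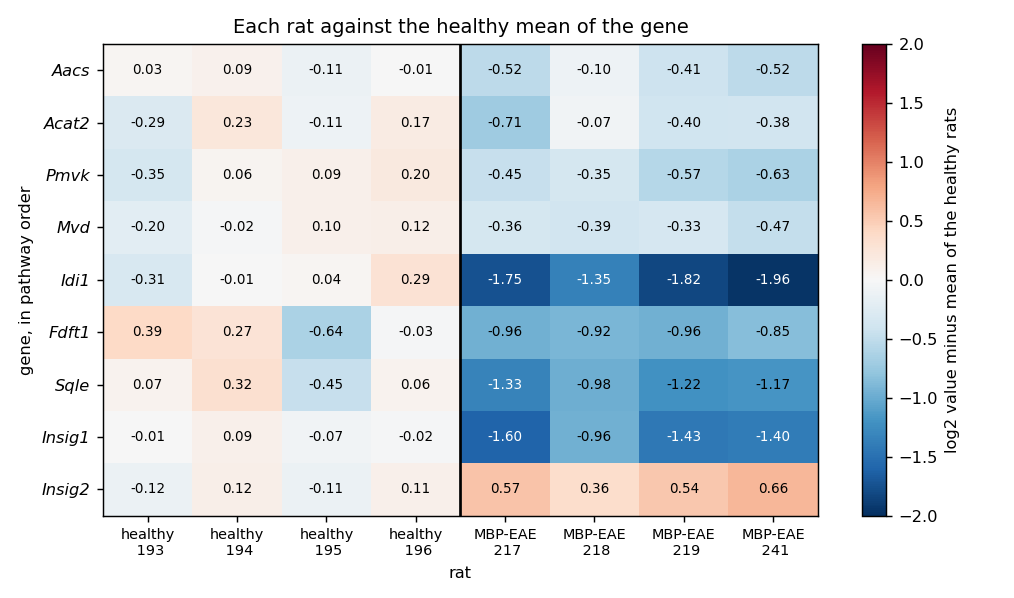
Log2 intensity of each member in each rat minus the mean of the 4 healthy control rats for that gene, with genes in pathway order (rows) and rats in columns. MBP-EAE values run from -1.96 (*Idi1*, rat 241) to 0.66 (*Insig2*, rat 241), and the column of rat 218 is paler for most genes.

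Most of the other pathway genes measured also fell. Of the other mevalonate and squalene genes listed, 2 of 6 were measured: *Ggps1*, which makes geranylgeranyl diphosphate, fell (log2 fold change -0.82, SE 0.12, adjusted p = 0.000947), and *Acat1*, the mitochondrial thiolase, was at -0.36 (adjusted p = 0.0876; called at -0.45 without healthy rat 195, 0.0284). *Hmgcs1*, *Mvk* and *Fdps* were not analysed here. From lanosterol synthesis to cholesterol 9 of 10 genes were measured, and 8 fell and 0 rose (median -0.79). The largest fall was that of *Cyp51*, the lanosterol demethylase, at 3.09-fold (adjusted p = 0.000174), followed by the methyl sterol oxidase *Msmo1* at 2.43-fold (5.16e-05) and the desaturase *Sc5d* at a log2 fold change of -1.18 (0.000173). The reductase *Dhcr7* (-0.83, adjusted p = 0.00132) and the dehydrogenase *Nsdhl* (-0.79, 0.00286) came next.

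The other 3 called genes of that list were nearer the threshold. The methods' t-test, here adjusted over all clusters, called none of them (adjusted p = 0.0533 for *Lss*, 0.0617 for *Tm7sf2* and 0.110 for *Hsd17b7*). The paper's full list of regulated genes used an unadjusted p under 0.05. For its shorter lists of the most regulated genes it also set a false discovery rate and limits on fold change. Among the down-regulated genes of the shorter lists are *Idi1*, *Sqle*, *Cyp51* (as *Cyp51a1*), *Msmo1* and *Sc5d* (as *Sc5dl*). The calls here were made by another test and without a fold limit, and are not those of the paper. Lanosterol synthase *Lss* (log2 fold change -0.58, adjusted p = 0.0184) was not called without rat 194 (0.0565) or 217 (0.0592). *Tm7sf2*, a sterol reductase (-0.37, adjusted p = 0.0408), was called without rat 193 or 219 and lost without each of the other 6, with adjusted p of 0.0596 to 0.115. *Hsd17b7*, a sterol ketoreductase (-0.72, adjusted p = 0.0374), had overlapping groups and was called only without rat 195 among the 8 rats left out in turn, with adjusted p of 0.0634 to 0.101 otherwise. *Ebp*, the sterol isomerase, was at -0.39 (adjusted p = 0.405) and was called at -0.71 without healthy rat 195 (0.0237).

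**Figure D5:**
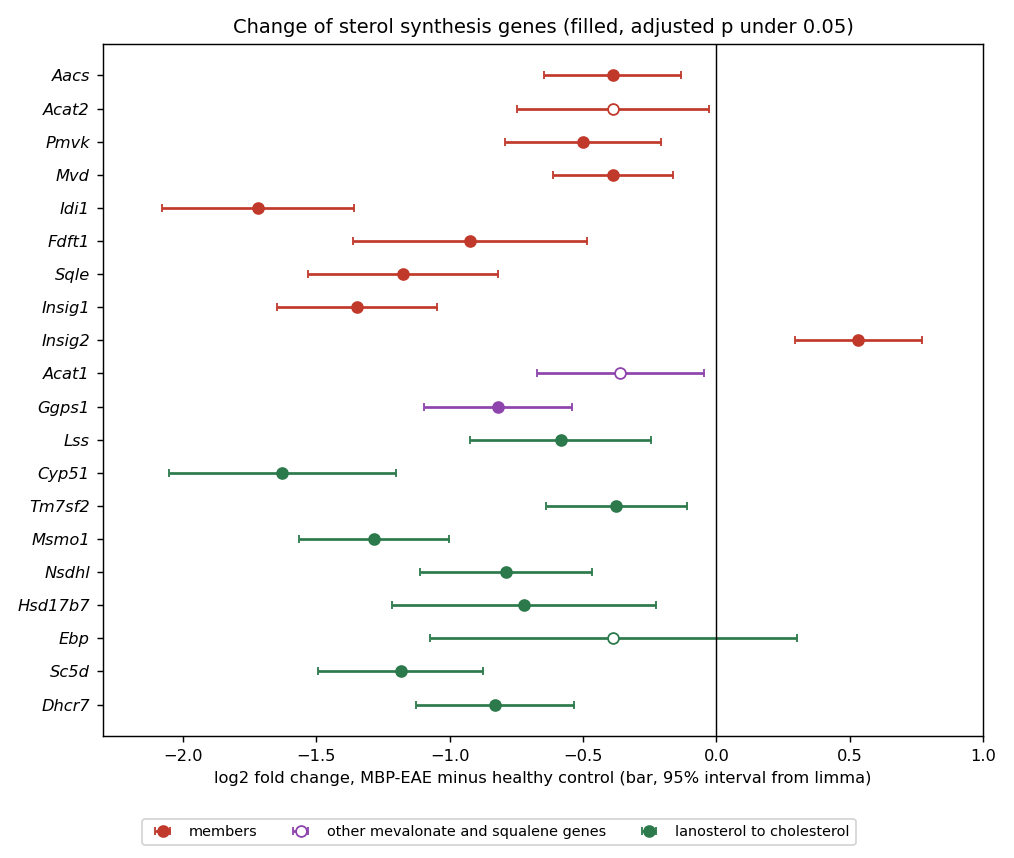
Points give the log2 fold change, MBP-EAE minus healthy control, of the 9 members (red), of 2 other mevalonate genes (purple) and of 9 lanosterol to cholesterol genes (green), and bars the 95% interval from limma. Filled points passed the adjusted p threshold; *Insig2* is the point right of 0, and the open points are *Acat2*, *Acat1* and *Ebp*.

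Genes around the pathway were counted by role. Of 6 measured genes of the SREBP machinery and its targets outside synthesis, 0 fell and 1 rose, the lysosomal cholesterol carrier *Npc2* (3.08-fold, adjusted p = 7.10e-05), while its partner *Npc1* was at -0.26 (adjusted p = 0.0703). Without healthy rat 193, 3 of the 6 were called higher, as were 2 under 4 other alternatives (array weights, the filter at the median level, quantile normalization and cyclic loess). Under 5 alternatives (the methods' t-test, array weights, both filters on dim clusters and median centring) 1 was called lower, as were 3 under the shift by reference genes. *Srebf1*, *Srebf2* and *Scap* were not analysed here. Of 11 genes of LXR response, sterol export and storage, 7 rose and 0 fell (median 0.46). They included *Soat1*, which esterifies cholesterol (4.68-fold, adjusted p = 1.86e-07), the exporter *Abca1* (3.56-fold, 6.53e-05), the lysosomal lipase *Lipa* (2.28-fold, 0.000938) and the phospholipid remodeller *Lpcat3* (log2 fold change 1.01, 0.00357). Of the 7, 1 lost its call without rat 194, 196 or 217. Under the shift by reference genes 5 of the 11 were called higher and 2 lower. Of 8 genes of the branches that lead from mevalonate to prenylation, dolichol and ubiquinone, *Fnta*, a prenyltransferase subunit, fell (-0.38, adjusted p = 0.00800) and *Srd5a3*, of dolichol synthesis, rose (0.76, 0.00240), and 6 did not pass (without healthy rat 195, 2 of the 8 were called lower, *Fnta* among them). Array weights also called 2 of the 8 lower, and the shift by reference genes 5. Of 6 ketone body and fatty acid genes, *Scd*, the stearoyl-CoA desaturase, fell 2.32-fold (adjusted p = 0.000129), and 5 did not pass. Without healthy rat 195, 5 of the 6 were called lower, as were 5 under the shift by reference genes. Array weights called 4 of them lower, quantile normalization 3 and both filters on dim clusters 2.

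Finally, the genes whose values over the 8 rats lay closest to a member were found among 7602 other clusters with 1 gene symbol, by the root mean square difference of the log2 values after each gene's own mean was removed. For *Insig1* they were *Msmo1* (0.12), *Sc5d* (0.13), *Sqle* (0.20), *Scd* (0.21) and *Gjb1* (0.23), and for *Sqle* they were *Sc5d* (0.10), *Calcb* (0.18), *Kcnh7* (0.18), *Pex5l* (0.19) and *Msmo1* (0.19). For *Idi1* they were *Hnmt* (0.25), *Msmo1* (0.25), *Insig1* (0.27), *Galnt13* (0.29) and *Nrep* (0.32). *Insig2* had other neighbours, *B2m* (0.06), *Rab8b* (0.06), *Rap1b* (0.09), *Adam17* (0.09) and *Ptgfrn* (0.09). Of the 19 measured sterol pathway genes besides the member, 4 were among the 20 nearest to *Idi1*, 6 to *Sqle*, 4 to *Insig1* and 0 to *Insig2*. The points share the same 8 arrays, and genes that changed by a like amount between the groups are close by this measure.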

How the data were processed

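RNA of 8 spinal cords (4 rats per group, groups and rat numbers from the sample titles) was measured. The authors deposited 1 table of log2 gene values; by their methods, probe intensities were background-corrected by RMA with a GC adjustment, quantile-normalized, log2 transformed and averaged over the core probe sets of each gene, and the submitters' processing notes name Affymetrix Expression Console, RMA, Partek and the build rn4. The table holds 8793 clusters, of which 7603 have 1 gene symbol in the platform annotation, 409 several and 781 are not listed there, and symbols come from that annotation. The values were not normalized again. MBP-EAE was compared with healthy control in limma 3.58.1 (R 4.3.3; lmFit and eBayes, two-sided), with Benjamini-Hochberg adjustment over all clusters at 0.05. The methods' variance analysis looked at batches, but the labels name none and none was fitted. Within-rat differences and single genes were tested with exact permutation (scipy 1.17.1). The limma script was tested on simulated data. The number of arrays limits the precision, and intervals rest on the spread between rats.

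All 9 members are named, with every called gene of the lists of other mevalonate genes and of lanosterol to cholesterol; from each other list at most 4 called genes with the largest change, and any called gene against its list's majority; and the 5 nearest genes of *Idi1*, *Sqle*, *Insig1* and *Insig2*. The members and lists were chosen with earlier results of these data known. The results were recomputed with a pooled t-test, with arrays weighted by quality and with a variance prior that is robust and follows the mean level. They were also recomputed after leaving out dim clusters (2 minimum levels) and with each rat left out. A further 4 scalings were applied (median centring, quantile, cyclic loess and reference genes).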

Additional observations from a re-analysis of the deposited data

Results flagged for a closer look

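In 3 of 44 groups of 4 rats looked at (20 genes, the 9 members among them, and the 2 within-rat differences, in both groups), 1 rat stood apart from the other 3 by Dixon's criterion, and chance flags about 1 in 20 groups. None was a group of a member or of a difference. *Msmo1* was 8.23 in MBP-EAE rat 218, the highest of its group, above values of 7.81 to 7.88. *Nsdhl* was 8.14 in MBP-EAE rat 219, the lowest of its group, where the other 3 rats had 8.30 to 8.33. *Dhcr7* was 4.98 in healthy rat 195, the lowest of its group, where the other 3 rats had 5.40 to 5.44.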

How the results depend on the processing

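*Idi1*, *Fdft1*, *Sqle* and *Insig1* kept their direction and their call under all 17 alternatives, with log2 fold changes of -2.07 to -1.61, -1.27 to -0.78, -1.53 to -1.04 and -1.70 to -1.20, and *Insig2* under 16. No fold change or within-rat difference of a gene recomputed here turned its direction, but most called clusters were lower in the main comparison and higher under cyclic loess. Over the 8 fits that each left out 1 rat, the log2 fold change was -0.49 to -0.34 for *Aacs* (called in 2), -0.62 to -0.43 for *Pmvk* (called in 4) and -0.46 to -0.35 for *Mvd* (called in 6), the members called lower numbered 4 to 7, with 4 without rat 196 or 241, and the change of *Insig2* minus *Insig1* was 1.78 to 2.06, the highest without rat 218. Clusters called lower fell from 1280 to 835 without rat 196 and to 850 without rat 217. Lanosterol to cholesterol genes called lower fell from 8 to 5 without rat 194 or 217 and with the pooled t-test. Array weights gave 3522 called clusters in place of 2274 and called *Acat2* (-0.63, adjusted p = 0.00464). Cyclic loess gave *Aacs* -0.31 (adjusted p = 0.0670), and 58.1% of called clusters were higher in place of 43.7%. The shift by reference genes gave 5501 called clusters, 10.5% of them higher, with *Acat2* called at -0.74 (adjusted p = 0.00442), *Insig2* at 0.18 and 0 members called higher; 4 of its 8 reference genes themselves rose in the main comparison. The causes of these shifts were not tested. The filter at the median level removed *Aacs* and *Mvd*, and no member had several clusters, so that averaging over clusters gave no value. No paired analysis was possible because no rat number occurs in both groups.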
